A study of Mus musculus with 7 samples.

Results

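The epithelial junction and surface genes Cldn3, Cldn4, Cldn6, Cldn7, Epcam, Cdh1, Spint1, Spint2 and Sfn were followed as 9 of the 19415 genes listed in the 7 single-cell libraries. They were taken by symbol, and a gene that a library did not list was counted as 0 there. The libraries came from atypical teratoid/rhabdoid tumours (ATRT) of 6 Rosa26-creERT2::Smarcb1 fl/fl mice. In these mice a tamoxifen-inducible Cre under the ubiquitous Rosa26 promoter deletes Smarcb1, which encodes a core protein of SWI/SNF chromatin remodellers. The pregnant mothers received tamoxifen at 50 mg/kg on day 6.5 post coitum, and the mice were followed until neurological symptoms. All groups therefore share the inducible deletion, which is not restricted to a cell type, and no library without it was analysed. The MYC subgroup had 5 libraries of 4 animals: basal cerebrum at 12 weeks (MYC replicate 1), trigeminal nerve at 19 weeks (MYC replicate 2), lateral cerebellum at 19 weeks (MYC replicate 3), trigeminal nerve at 21 weeks (MYC replicate 4) and basal cerebrum at 27 weeks (MYC replicate 5). MYC replicates 2 and 3 carry the code of 1 animal. The SHH subgroup had 2 libraries of 2 animals, both from the striatum/subventricular zone, at 14 weeks (SHH replicate 1) and 16 weeks (SHH replicate 2). No site holds both subgroups, so that subgroup and site cannot be told apart.

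In simple epithelia, claudins form the strands of tight junctions, and E-cadherin, the product of Cdh1, holds neighbouring cells together at adherens junctions. Epcam is a surface adhesion protein that binds and stabilises Cldn7 and related claudins. Spint1 and Spint2 encode Kunitz-type inhibitors of epithelial surface serine proteases such as matriptase (St14) and prostasin (Prss8), which also act on barrier formation. Sfn encodes stratifin, the epithelial member of the 14-3-3 family of phosphoprotein adaptors. Human ATRT is known for mixed differentiation, with primitive neuroectodermal, mesenchymal and epithelial elements in 1 tumour. Krt8, a keratin of simple epithelia, and Col1a2, a chain of type I collagen, served as markers of the epithelial and the mesenchymal side.

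The genes lie at scattered places in the mouse genome (GRCm38, the assembly also called mm10), all protein coding. Cldn3 (ENSMUSG00000070473) lies at chr5:134986214-134987472 on the + strand and Cldn4 (ENSMUSG00000047501) at chr5:134945119-134946934 on the - strand, 39279 bases apart. Cldn6 (ENSMUSG00000023906) lies at chr17:23679249-23682446 and Epcam (ENSMUSG00000045394) at chr17:87635979-87651129, both on the + strand. Cldn7 (ENSMUSG00000018569) lies at chr11:69964779-69967885 and Cdh1 (ENSMUSG00000000303) at chr8:106603351-106670246, both on the + strand. Spint1 (ENSMUSG00000027315) lies at chr2:119237362-119249527 on the + strand, Spint2 (ENSMUSG00000074227) at chr7:29256323-29281912 on the - strand, and Sfn (ENSMUSG00000047281) at chr4:133600556-133602168 on the - strand.

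A few proximal promoters are shown because their genes carry the pattern of levels described next: the neighbours Cldn3 and Cldn4 and the gene Sfn, which were detected at high level in the basal cerebral MYC tumours, and Epcam, which was also detected in the SHH tumours. The sequences are the 250 bases before the RefSeq gene start (GRCm38.p6), written in the direction of transcription. Capitals mark the E-box CAGGTG, the core that SNAI and ZEB repressors bind, and the GC box GGGCGG, on either strand (read as CACCTG and CCGCCC on the other strand).
Cldn3, chr5:134985964-134986213, + strand: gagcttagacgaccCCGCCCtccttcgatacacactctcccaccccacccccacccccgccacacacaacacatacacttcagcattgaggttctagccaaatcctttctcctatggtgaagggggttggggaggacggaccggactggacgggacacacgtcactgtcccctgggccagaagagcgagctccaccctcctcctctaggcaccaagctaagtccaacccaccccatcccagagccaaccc
Cldn4, chr5:134946935-134947184, - strand: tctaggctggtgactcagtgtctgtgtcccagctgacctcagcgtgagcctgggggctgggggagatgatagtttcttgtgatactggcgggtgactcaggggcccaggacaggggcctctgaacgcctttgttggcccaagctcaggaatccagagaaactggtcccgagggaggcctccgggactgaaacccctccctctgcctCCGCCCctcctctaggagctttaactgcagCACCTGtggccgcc
Epcam, chr17:87635729-87635978, + strand: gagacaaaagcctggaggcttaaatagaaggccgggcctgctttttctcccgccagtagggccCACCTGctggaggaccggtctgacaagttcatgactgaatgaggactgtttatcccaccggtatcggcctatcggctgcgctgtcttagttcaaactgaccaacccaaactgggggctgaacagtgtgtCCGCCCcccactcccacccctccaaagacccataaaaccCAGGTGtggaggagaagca
Sfn, chr4:133602169-133602418, - strand: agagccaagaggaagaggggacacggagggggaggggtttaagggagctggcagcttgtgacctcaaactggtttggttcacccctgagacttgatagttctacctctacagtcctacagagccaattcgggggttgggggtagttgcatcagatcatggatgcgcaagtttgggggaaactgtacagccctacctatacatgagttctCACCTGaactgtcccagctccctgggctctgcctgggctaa
Of the 8 members with a promoter sequence, 6 held CAGGTG on either strand (Cldn4, Cldn6, Cldn7, Epcam, Spint2 and Sfn), against 17.2% of all 32841 promoter windows of the same length. Cldn7 has 2 windows and was counted once. GGGCGG was found in 7 of the 8, all but Sfn, against 32.7% of all windows. The AP-1 motif TGANTCA was found in 1 of the 8, at 2 places before Cldn4, against 6.75% of all windows. The TATA box letters TATAAA and the grainyhead-like core AACCGGTT were in none of the 8, against 12.4% and 0.116% of all windows. A match in these windows is a description of the letters and not a binding site.

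The study states 24199 cells, and the 7 deposited tables held 24433 barcodes with 2150925 to 111985990 unique molecular identifiers (UMIs, each counting 1 captured transcript) per library, and MYC replicate 5 held 62.5% of the barcodes. After filters and removal of predicted doublets, 21899 cells remained, of which 15491 had no UMI of Ptprc, the pan-leukocyte gene CD45 (138 to 10243 per library), and 6408 had at least 1. Of the Ptprc-negative cells, 14.9 to 53.0% per library still held 10 or more UMIs over 8 immune genes, so levels were also read in a stricter gate of 8122 cells with at most 1 such UMI (92 to 5878 per library). Smarcb1, the deleted gene, stood at 1.45 to 13.8 CPM (UMIs per 1000000 UMIs of the cells summed) in the stricter gate of the MYC libraries and at 18.3 and 1.43 CPM in SHH replicates 1 and 2, against 34.5 to 51.9 CPM in cells with 10 or more immune UMIs. These are 3′ counts, which need not read the deleted part. Ttr, a choroid plexus and ventricular epithelium transcript, stood at 7601 CPM in the stricter gate of SHH replicate 1, and the 6 choroid plexus markers summed to 7645 CPM there, against 97.8 CPM in SHH replicate 2. Libraries shared few cell barcodes: 230 of 24202 distinct barcodes occurred in more than 1 library.

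The set was detected as a whole in the tumours of the basal cerebrum. MYC replicates 2, 3 and 4 listed 4, 3 and 7 of the 9 genes, the basal cerebral MYC replicates 1 and 5 listed all 9, and SHH replicates 1 and 2 listed 4 and 5. In Ptprc-negative cells the summed level of the 9 genes was 115, 8.19 and 143 CPM in MYC replicates 2, 3 and 4 and 1817 and 1843 CPM in MYC replicates 1 and 5, against 154 and 282 CPM in SHH replicates 1 and 2. At least 1 UMI of the set was found in 31.0%, 6.52% and 21.3% of cells of MYC replicates 2, 3 and 4, in 84.9% and 84.0% of cells of MYC replicates 1 and 5, and in 18.9% and 42.3% of cells of SHH replicates 1 and 2. With cells of 1500 or more UMIs thinned to that depth, which leaves out shallower cells (420 of 832 kept in MYC replicate 4, 1552 of 2328 in SHH replicate 1 and 1197 of 1450 in SHH replicate 2), the shares were at most 16.7% in MYC replicates 2, 3 and 4, 61.6% and 67.9% in MYC replicates 1 and 5, and 14.4% and 27.0% in SHH replicates 1 and 2. An unlisted gene may hide up to 2 barcodes, since each library lists genes found in at least 3.

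**Figure D1:**
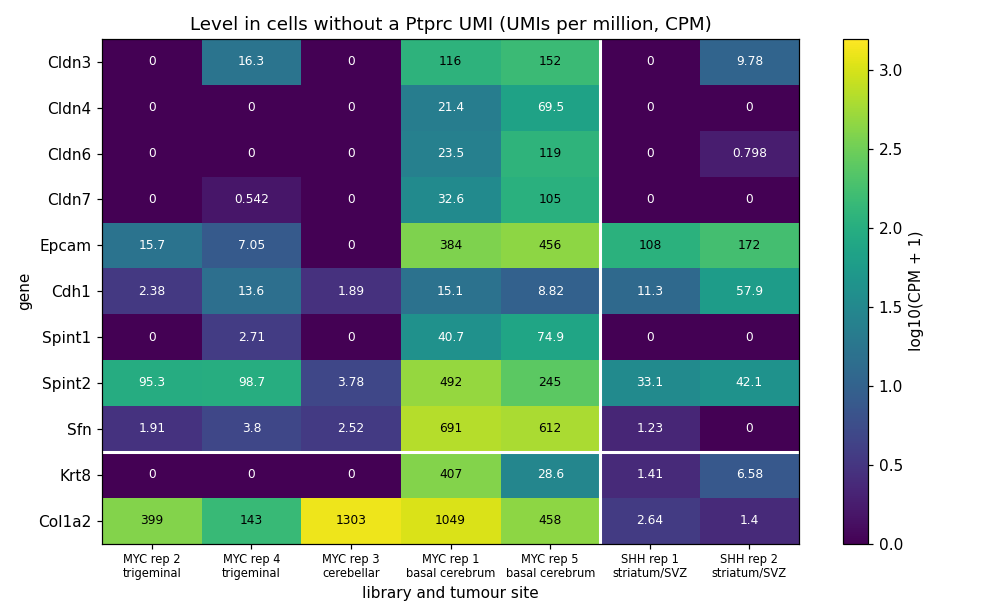
Level of each of the 9 genes, of Krt8 and of Col1a2 in Ptprc-negative cells of each library (columns, with site), printed as CPM and coloured by log10(CPM + 1). The columns of MYC replicates 1 and 5 hold a value above 0 in every row, and in the SHH columns Epcam, Cdh1 and Spint2 are the 3 of the 9 genes with a value above 2 CPM in both libraries.

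The claudins were at or near 0 in most libraries outside the basal cerebrum. Cldn3 stood at 116, 0, 0, 16.3 and 152 CPM in MYC replicates 1 to 5, against 0 and 9.78 CPM in SHH replicates 1 and 2. Cldn4 stood at 21.4 and 69.5 CPM in MYC replicates 1 and 5 and was at 0 in the other 5 libraries. Only the basal cerebral libraries listed Cldn4. Cldn6, a claudin of embryonic epithelia, stood at 23.5 and 119 CPM in MYC replicates 1 and 5, and at 0.798 CPM in SHH replicate 2. Cldn7, the claudin that pairs with Epcam, stood at 32.6 and 105 CPM in MYC replicates 1 and 5, and at 0.542 CPM in MYC replicate 4. Outside the basal cerebrum, Cldn6 and Cldn7 were thus at 0 in 4 libraries each. The Cldn3 UMIs of MYC replicate 4 came, in the stricter gate, from 10 of 182 cells with a median of 10341 UMIs, against 1456.5 in the cells without Cldn3. Those 10 cells held no Krt8, Krt18 or Epcam UMI and had Col1a2 at 487 CPM, against 391 CPM in the cells without Cldn3.

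Epcam had a wider distribution. It stood at 384, 15.7, 0, 7.05 and 456 CPM in MYC replicates 1 to 5, against 108 and 172 CPM in SHH replicates 1 and 2. Both SHH libraries were above the trigeminal and cerebellar MYC libraries and below the basal cerebral ones, so that the subgroups overlapped. In the stricter gate Epcam was detected in 30% (Wilson 95% interval 26.6 to 33.6%) of cells of SHH replicate 1 and 32.0% (29.3 to 34.8%) of SHH replicate 2. In immune-rich cells of the same libraries the shares were 5.16% and 4.27%. Median depths were 2345.5 and 3659.5 UMIs in the stricter gate and 2999 and 2897.5 UMIs in immune-rich cells. The Epcam-positive cells of SHH replicate 1 had Fabp7, a radial glial and progenitor transcript, at 2297 CPM, against 1831 CPM in its Epcam-negative cells. Ttr was at 4240 CPM in the Epcam-positive cells and 9478 CPM in the Epcam-negative ones. In SHH replicate 2 Fabp7 was at 3527 CPM in Epcam-positive and 3711 CPM in Epcam-negative cells, and Ttr at 0.669 and 145 CPM. The Epcam-positive cells thus had less Ttr than the Epcam-negative cells in both SHH libraries, and the order of Fabp7 differed between the libraries. Epcam-positive cells were deeper, with a median of 3005 against 2013 UMIs in SHH replicate 1 and 3876 against 3539.5 UMIs in SHH replicate 2. Neither SHH library listed Cldn4 or Cldn7.

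Cdh1 did not follow the claudins. It stood at 15.1, 2.38, 1.89, 13.6 and 8.82 CPM in MYC replicates 1 to 5, against 11.3 and 57.9 CPM in SHH replicates 1 and 2. SHH replicate 2 was the highest, at a level above that of both claudin-rich MYC libraries. In the stricter gate 18.6% (16.4 to 21.0%) of the cells of SHH replicate 2 held Cdh1, against 3.02% of its immune-rich cells (median depths 3659.5 and 2897.5 UMIs). Its Cdh1-positive cells had Epcam at 246 CPM and Gfap, an astrocyte filament gene, at 78.3 CPM, and its Cdh1-negative cells had 186 and 13.2 CPM. Slc1a3, another astrocyte gene, was at 81.7 CPM in Cdh1-positive and 101.99 CPM in Cdh1-negative cells. In SHH replicate 1 Epcam was at 223 and Gfap at 17.2 CPM in its 21 Cdh1-positive cells, from only 13 UMIs and 1 UMI. Its Cdh1-negative cells had 273 and 41.7 CPM. So few UMIs do not settle whether the order of Epcam and Gfap differed between the SHH libraries. Cdh2, which encodes N-cadherin, the cadherin of neural and mesenchymal cells, was at 106 and 99.5 CPM in the stricter gate of SHH replicates 1 and 2. In MYC replicates 1 to 5 Cdh2 was at 0, 28.4, 70.4, 3.45 and 3.46 CPM there.

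The protease inhibitors and Sfn were again highest in the basal cerebrum. Spint1 stood at 40.7, 0, 0, 2.71 and 74.9 CPM in MYC replicates 1 to 5 and at 0 in both SHH libraries. Spint2 stood at 492, 95.3, 3.78, 98.7 and 245 CPM in MYC replicates 1 to 5, against 33.1 and 42.1 CPM in SHH replicates 1 and 2. Spint2 was thus detected in every library, lowest in the cerebellar one. Sfn stood at 691, 1.91, 2.52, 3.80 and 612 CPM in MYC replicates 1 to 5, against 1.23 and 0 CPM in SHH replicates 1 and 2. The Sfn levels of the 5 libraries outside the basal cerebrum came from few UMIs and were within 4 CPM of 0. Krt8 stood at 407 and 28.6 CPM in MYC replicates 1 and 5, at 0 in MYC replicates 2, 3 and 4, and at 1.41 and 6.58 CPM in SHH replicates 1 and 2. The ratio of Krt8 between the basal cerebral tumours was larger than that of any of the 9 genes.

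The subgroups were compared over animals, with MYC replicates 2 and 3 summed. All 9 genes passed the filter on low counts, and none passed edgeR's quasi-likelihood test at an adjusted p under 0.05 (Benjamini-Hochberg), where 0.331% of the 12985 genes tested did. At an unadjusted p under 0.05, 4 of the 9 (Cldn7, Spint1, Spint2 and Sfn) were higher in MYC animals, where 6.42% of all genes were. DESeq2 called 4 (Cldn4, Spint1, Spint2 and Sfn), where it called 4.07% of genes higher. Cldn4, Cldn7 and Spint1 held 0 UMIs and Sfn 7 UMIs over both SHH libraries. They passed the filter through the MYC animals, so their direction was largely fixed in advance and their part in these counts carries no support. The spread within the MYC group was as large as the difference: Cldn3 averaged 71.1 ± 74.5 CPM in MYC animals and 4.89 ± 6.91 CPM in SHH animals (SD, n = 4 and 2), a log2 fold change of 4.14 ± 2.49 (SE; edgeR adjusted p = 0.531). Spint2 averaged 223 ± 197 CPM in MYC animals and 37.6 ± 6.33 CPM in SHH animals (2.71 ± 0.93; edgeR adjusted p = 0.305). Spint2 and Sfn did not overlap between the subgroups, where 10.1% of all genes were higher without overlap. For Spint2 this rests on summing MYC replicates 2 and 3: MYC replicate 3 alone had Spint2 at 3.78 CPM, below both SHH libraries. In the stricter gate Spint2 was at 25.6 and 1.74 CPM (18 and 2 UMIs) in MYC replicates 2 and 3. SHH replicates 1 and 2 had 34.7 and 40.9 CPM there, so Spint2 overlapped between the subgroups also with MYC replicates 2 and 3 summed. The lowest Sfn level of a MYC animal came from 4 UMIs in each of MYC replicates 2 and 3, against 7 and 0 UMIs in SHH replicates 1 and 2. Sfn averaged 327 ± 376 CPM in MYC animals and 0.617 ± 0.872 CPM in SHH animals (9.08 ± 3.40; edgeR adjusted p = 0.340).

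Epcam averaged 214 ± 239 CPM in MYC animals and 140 ± 45.1 CPM in SHH animals, a log2 fold change of 0.79 ± 1.64 (edgeR adjusted p = 0.895). Cdh1 was the 1 member with a negative fold change, at 9.91 ± 5.81 CPM in MYC animals and 34.6 ± 32.9 CPM in SHH animals (-1.60 ± 0.82; edgeR adjusted p = 0.460). Cldn4, Cldn7 and Spint1 were not listed in the SHH libraries. Against a floor of 3 UMIs over both SHH libraries (0.281 CPM), their mean over MYC animals was 81.0-fold, 123-fold and 105-fold higher. Each library may hide 2 barcodes of an unlisted gene, so the floor may be exceeded and these folds are not strict bounds. Without MYC replicate 5 these values were 25.4-fold, 39.4-fold and 51.6-fold. The median log2 fold change was 6.78 over the 9 members, or 6.34 with those 3 genes set against the floor, beside 0.06 over all genes. Members that passed the filter on low counts mainly through the MYC animals enter this median, so it carries no support. Col1a2 was at 610 ± 394 CPM in MYC animals and 2.02 ± 0.882 CPM in SHH animals (8.32 ± 1.15; edgeR adjusted p = 0.0546). In the same cells the 8 immune markers summed to 642 to 3629 CPM in MYC libraries and to 6395 and 1312 CPM in SHH replicates 1 and 2, with only Ptprc at 0 in both SHH libraries, and their part in these differences was not tested.

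Within the MYC subgroup, the 2 trigeminal libraries were set against the 2 basal cerebral libraries. Epcam averaged 11.4 ± 6.13 CPM in trigeminal tumours and 420 ± 50.8 CPM in basal cerebral tumours (SD, n = 2 each), a log2 fold change of -5.09 ± 0.63 (edgeR adjusted p = 0.332). Sfn averaged 2.85 ± 1.34 CPM in trigeminal and 652 ± 55.7 CPM in basal cerebral tumours (-7.76 ± 0.59; edgeR adjusted p = 0.332). No member passed edgeR's test, which called 0% of the 10623 genes in this comparison of 2 animals with 2, with 1023 genes (9.63%) at an unadjusted p under 0.05. At an unadjusted p under 0.05, 7 of the 9 were lower in trigeminal tumours (all but Cldn3 and Cdh1), where 4.44% of all genes were. Cldn4, Cldn6, Cldn7, Spint1 and Sfn held 0, 0, 1, 5 and 11 UMIs over both trigeminal libraries. They passed the filter on low counts through the basal cerebral libraries, so their direction was largely fixed in advance. Their part in the counts of this paragraph carries no support. DESeq2 called the same number, 7 of 9 lower, where it called 1.72% of genes lower, and edgeR without the filter on low counts called 8, where it called 2.31%. All members but Cdh1 were lower in both trigeminal libraries than in both basal cerebral ones, where 21% of all genes were lower without overlap. The exception of Cdh1 did not hold in the stricter gate. There Cdh1 was at 5.69 and 3.45 CPM in MYC replicates 2 and 4, from 4 and 2 UMIs. In MYC replicates 1 and 5 it was at 16.9 and 7.85 CPM.

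Cldn3 averaged 8.13 ± 11.5 CPM in trigeminal and 134 ± 25.3 CPM in basal cerebral tumours (-4.01 ± 1.57; edgeR adjusted p = 0.522). Spint2 had the smallest difference of those that did not overlap, with 97.0 ± 2.39 CPM in trigeminal and 369 ± 175 CPM in basal cerebral tumours (-1.82 ± 0.48; edgeR adjusted p = 0.344). Cdh1 averaged 7.97 ± 7.90 CPM in trigeminal and 12.0 ± 4.43 CPM in basal cerebral tumours (-0.50 ± 0.87; edgeR adjusted p = 0.916). Cldn4 and Cldn6 were not listed in either trigeminal library. With a floor of 3 UMIs over both (0.761 CPM), Cldn4 and Cldn6 were 59.8-fold and 93.8-fold lower in trigeminal tumours. Set against MYC replicate 1 alone, they were 28.1-fold and 30.9-fold lower. Hidden barcodes of an unlisted gene may exceed the floor, so these folds are not strict bounds. The median log2 fold change over the members was -5.40, also with those 2 set against the floor, beside -0.01 over all genes. Members that passed the filter on low counts mainly through the basal cerebral libraries enter this median, so it carries no support. In these cells the immune markers moved the other way: all 7 that were tested had higher levels in the trigeminal libraries, with 3 at an unadjusted p under 0.05, and the 8 summed to 2620 and 3629 CPM in trigeminal and 926 and 1073 CPM in basal cerebral libraries. In the stricter gate, where few immune UMIs remain, the fold changes were -4.18 for Epcam, -7.10 for Sfn and -2.60 for Cldn3, none of them called.

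Other genes of the same pathways were counted by list. No gene of the 8 pathway lists passed edgeR's test in the subgroup or the site comparison. Of 22 other claudin and tight junction genes, 15 were tested between subgroups and 10 had a positive fold change, with a median of 1.54 beside 0.06 over all genes. Between sites 12 were tested, of which 11 had lower levels in trigeminal tumours, with a median of -1.22 beside -0.01. Of 12 surface protease genes, 6 were tested in each comparison: all 6 had a positive fold change in MYC animals, and 5 of 6 were lower in trigeminal than in basal cerebral tumours. Of 12 epithelial transcription and splicing regulators, all 6 tested were positive in MYC animals and all 4 tested were negative in trigeminal tumours. Of these 12, 11 had a UMI in each of MYC replicates 1 and 5. MYC replicates 2, 3 and 4 held 2, 1 and 0 of them, and each SHH library 3. Such genes pass the filter on low counts mainly through the basal cerebral libraries, so these signs were largely fixed in advance and carry no support. The counts of surface protease genes share this limit in part, as do those of the tight junction genes between sites. Of these 22 genes, 16 and 21 had a UMI in MYC replicates 1 and 5, and 11 and 10 in MYC replicates 2 and 4. Of 9 mesenchymal regulators, 6 of 9 were positive between subgroups and 4 of 8 between sites. The other 14-3-3 genes had 3 of 6 positive and 3 of 6 negative fold changes between subgroups, with a median of 0.12.

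Single genes of these lists, chosen after their values were seen, show where the pattern lay in the stricter gate. Prss8, which encodes the membrane protease prostasin, was at 19.3 and 61.6 CPM in MYC replicates 1 and 5 and at 0 in the other 5 libraries. St14, which encodes matriptase, was at 8.43 and 24.5 CPM in MYC replicates 1 and 5 and under 1 CPM elsewhere. The splicing regulator Esrp1 was at 25.3 and 17.1 CPM in MYC replicates 1 and 5 and at 0 elsewhere. The polarity gene Crb3 was at 15.6 and 42.6 CPM in MYC replicates 1 and 5 and below 2 CPM elsewhere. The desmosome gene Dsp was nearly missing, at 0 and 0.170 CPM in MYC replicates 1 and 5. Zeb2, a repressor of Cdh1, was at 6.02 and 5.86 CPM in MYC replicates 1 and 5, 39.8, 59.97 and 37.9 CPM in MYC replicates 2, 3 and 4, and 117 and 28.6 CPM in SHH replicates 1 and 2. Markers of normal epithelia that a dissection could include were also read there in MYC replicates 1 and 5. Of 5 secretory gland markers 1 and 3 were detected, summing to 4.81 and 0.218 CPM, with Bpifa2 and Muc5b at 0. Of 6 pituitary markers 2 and 3 were detected, summing to 21.7 and 7.05 CPM, with Prl, Cga and Lhx3 at 0. Of 5 keratinocyte markers 3 and 5 were detected, summing to 33.7 and 33.3 CPM, with Krt5 at 0 and 0.412 CPM. In all Ptprc-negative cells these lists summed to more in MYC replicate 1: 95.8 and 2.24 CPM for the gland, 10.9 and 6.0004 CPM for the pituitary and 231 and 30.1 CPM for the keratinocyte markers in MYC replicates 1 and 5, and their part in the members' levels was not tested.

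Cells of the basal cerebral tumours carried more of the genes at once than those of the other libraries. In the stricter gate a cell of MYC replicate 5 held a median of 4 of the 9 genes and 44.4% of its 5878 cells held 5 or more, and in MYC replicate 1 the median was 3 and the share 15.2% of 92 cells. No cell of the other 5 libraries held 5 or more, and their most was 2, 1 and 2 in MYC replicates 2, 3 and 4, and 2 and 3 in SHH replicates 1 and 2. MYC replicates 2 and 3 and SHH replicate 1 listed only 4, 3 and 4 of the 9 genes, so their cells could not reach 5. At 1500 UMIs per cell the medians were 2 genes in MYC replicate 5 and 1 in MYC replicate 1, and the shares with 5 or more were 5.04% in MYC replicate 5 and 2.17% in MYC replicate 1.

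**Figure D2:**
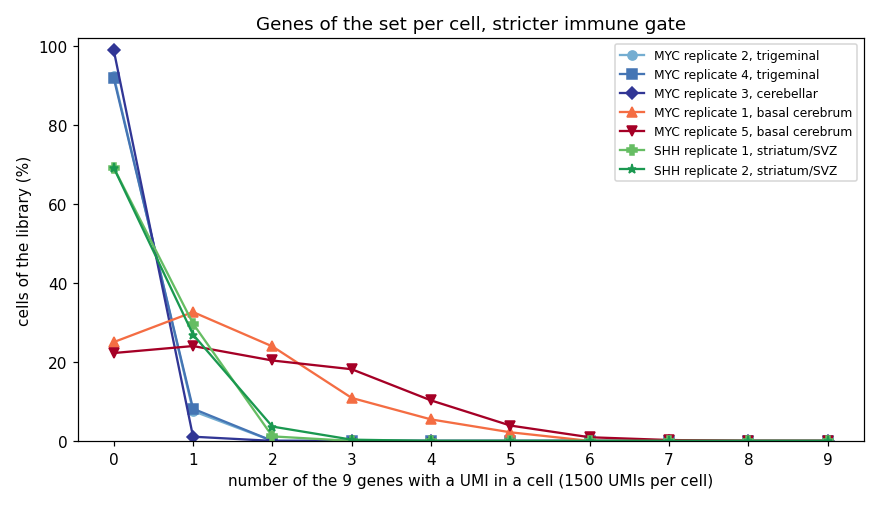
Share of cells of the stricter gate (y axis, percent) that held 0 to 9 of the genes (x axis) in cells thinned to 1500 UMIs, 1 line per library; shallower cells were left out (86 of 182 kept in MYC replicate 4, 438 of 650 and 966 of 1120 in SHH replicates 1 and 2). The line of MYC replicate 1 reaches 5 genes and that of MYC replicate 5 reaches 8, and the other 5 end at 3 or fewer. MYC replicates 2 and 3 and SHH replicate 1 listed only 4, 3 and 4 of the 9 genes.

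Co-detection with Krt8 and Col1a2 was read at equal depth in MYC replicate 5, the library with enough cells. After thinning, Epcam was found in 48.1% of the 162 Krt8-positive cells and 40.7% of the 5716 Krt8-negative cells. Sfn was found in 61.7% of Krt8-positive and 48.5% of Krt8-negative cells, Cldn4 in 14.8% and 7.54%, and Cldn7 in 20.4% and 11.6%. The Wilson 95% intervals of Sfn, Cldn4 and Cldn7 did not overlap, and those of the other 6 genes did. These intervals cover counting error only, since the cells come from 1 tumour. Most cells with a member gene had no Krt8 UMI.

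Col1a2 gave the opposite order. Epcam was found in 13.9% (12.3 to 15.6%) of the 1718 Col1a2-positive cells and 52.0% (50.5 to 53.5%) of the 4160 Col1a2-negative cells. Cldn3 was found in 4.89% of Col1a2-positive and 24.7% of Col1a2-negative cells, and Cldn4 in 1.57% and 10.3%. By odds ratio, Sfn had the smallest contrast of the 8 genes other than Cdh1, with 33.8% of Col1a2-positive and 55.2% of Col1a2-negative cells. Cdh1 did not differ beyond its counting error, with 0.990% of Col1a2-positive and 0.817% of Col1a2-negative cells. In MYC replicate 1, with 47 Col1a2-positive and 45 Col1a2-negative cells, Epcam was found in 34.0% and 33.3% and Sfn in 40.4% and 31.1%. There the 95% intervals overlapped for all 9 genes.

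**Figure D3:**
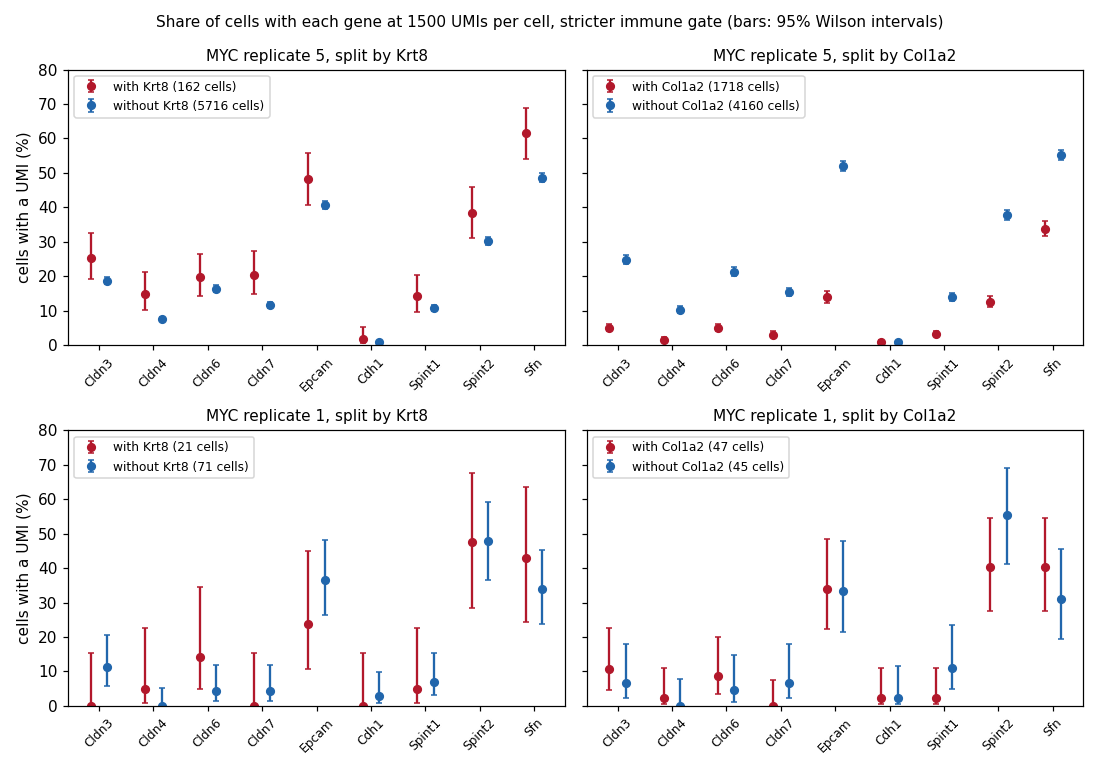
Share of stricter-gate cells with a UMI of each gene (y axis, percent, at 1500 UMIs per cell) in cells with and without Krt8 (left) and with and without Col1a2 (right). Points are shares and bars Wilson 95% intervals. In MYC replicate 5 (top), Epcam was at 13.9% with Col1a2 and 52.0% without, and in MYC replicate 1 (bottom) the intervals overlapped.

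Krt8 and Col1a2 themselves were detected together in some cells. Of the Ptprc-negative Krt8-positive cells, 77 of 95 (81.1%) in MYC replicate 1 and 374 of 809 (46.2%) in MYC replicate 5 also held Col1a2, or 61.2% and 32.1% at 1500 UMIs per cell. Of the Krt8-negative cells, 51.1% and 36.9% held Col1a2, or 36.1% and 25.1% at 1500 UMIs per cell. In the stricter gate at that depth the shares were 57.1% with and 49.3% without Krt8 in MYC replicate 1. In MYC replicate 5 they were 33.3% and 29.1%. The 77 cells had a median of 17735 UMIs, against 4544 in Krt8-positive cells without Col1a2. The part of remaining doublets was not tested. In the stricter gate of MYC replicate 5 the summed level of the 9 genes was 3549 CPM in cells with Krt8 alone, 1726 CPM in cells with Krt8 and Col1a2, 1137 CPM in cells with Col1a2 alone and 2588 CPM in cells with neither. In MYC replicate 1 the same classes had 1691, 2350, 1463 and 1521 CPM, from 10 to 41 cells each. The order of the classes thus differed between the basal cerebral tumours.

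Pairs of genes were read in the same thinned cells of MYC replicate 5, as a description of 1 tumour. All 28 pairs of the 8 genes other than Cdh1 had a positive log2 odds ratio of detection in the same cell, from 0.57 for Cldn6 with Sfn to 1.58 for Cldn4 with Cldn7. Cldn3 with Epcam stood at 1.4998. The same 8 genes had negative ratios with Col1a2, from -2.82 for Cldn4 to -1.27 for Sfn, and positive ones with Krt8, from 0.35 for Cldn6 to 1.12 for Cldn4. Cdh1 was found in only 51 of the 5878 cells, and its ratios ranged from -3.65 to 1.01 with the other members.

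**Figure D4:**
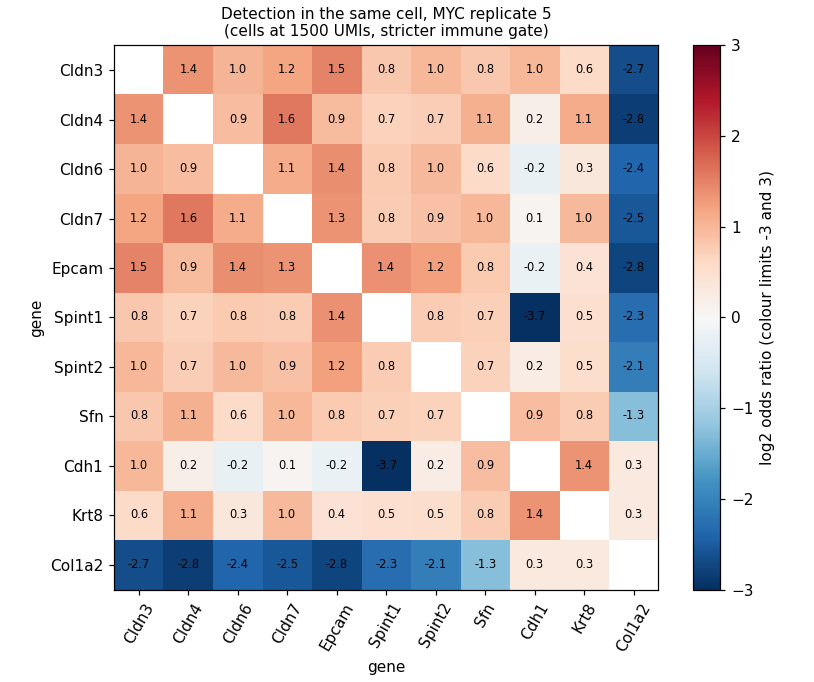
Log2 odds ratio that both genes of a pair have a UMI in the same cell, for the 9 genes, Krt8 and Col1a2 (both axes) in MYC replicate 5 (stricter gate, 1500 UMIs per cell). The Col1a2 row is negative for the 8 genes other than Cdh1, down to -2.82 for Cldn4, and the pairs among those 8 are positive.

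Over animals, the class comparisons left these differences short of the test. Krt8-positive against Krt8-negative cells could be compared in the 2 animals with enough cells, MYC replicates 1 and 5, with the animal as a block. Sfn stood at 966 and 938 CPM in Krt8-positive cells, against 202 and 609 CPM in Krt8-negative cells, a log2 fold change of 1.41 ± 0.38 (edgeR adjusted p = 0.257). Cldn3 stood at 157 and 241 CPM in Krt8-positive cells, against 41.3 and 150 CPM in Krt8-negative cells (1.21 ± 0.30; edgeR adjusted p = 0.220). Epcam stood at 328 and 564 CPM in Krt8-positive cells, against 419 and 468 CPM in Krt8-negative cells (-0.03 ± 0.17; edgeR adjusted p = 1). All 9 members were tested and none was called, where 0.691% of 12010 genes were, and DESeq2 called Cldn3, where it called 0.543% of genes higher. At an unadjusted p under 0.05, 6 members were higher in Krt8-positive cells, where 2.49% of all genes were. The median log2 fold change over all 9 members was 0.79, beside 0.00 over all genes.

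In all, 11 genes were higher and 72 lower in the Krt8-positive cells. The keratin genes of the lists that were called were Krt18, the partner of Krt8 (3.31 ± 0.23; edgeR adjusted p = 0.0118), and the basal keratin Krt14 (2.50 ± 0.27; edgeR adjusted p = 0.0389). Immune genes were lower in the Krt8-positive cells, where 4 of the 6 tested markers passed, among them Tyrobp (-2.74 ± 0.30; edgeR adjusted p = 0.0389) and Fcer1g (-2.66 ± 0.20; edgeR adjusted p = 0.0156). Summing cells by Krt8 therefore also separated cells by their immune transcripts, and the part of this in the members' differences was not tested.

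Col1a2-positive against Col1a2-negative cells could be compared in all 4 MYC animals. None of the 8 members that passed the filter (all but Cldn4) was called, where 0.0107% of 9340 genes were, and none had an unadjusted p under 0.05, where 13.6% of genes did. DESeq2 called none of the 8 and 7.45% of genes. The animals differed: in MYC replicate 5 Cldn3 stood at 75.9 CPM in Col1a2-positive and 209 CPM in Col1a2-negative cells, and in MYC replicate 1 at 131 and 24.0 CPM. Sfn stood at 476 and 710 CPM in the same classes of MYC replicate 5 and at 749 and 261 CPM in those of MYC replicate 1. Epcam was lower in Col1a2-positive cells of both, at 233 and 352 CPM, against 621 and 411 CPM in Col1a2-negative cells of MYC replicates 5 and 1. The median log2 fold change over the 8 members was -0.47, beside 0.01 over all genes. All 6 immune markers tested were lower in Col1a2-positive cells at an unadjusted p under 0.05.

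Immune cells of the same libraries were used to see where each gene's transcripts sat. In MYC replicate 5 the level in immune-rich cells, those with 10 or more UMIs over the immune panel, was 0.202 to 0.331 times that of the stricter gate for the 8 members other than Cdh1. Epcam was found in 66.7% and Sfn in 77.4% of the 5878 cells of the stricter gate at their own depth (median 6170 UMIs), against 22.4% and 20.7% of the 4402 immune-rich cells (4179 UMIs). How much of the shares in immune-rich cells comes from free RNA was not tested.

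In 3 of the MYC libraries with Cdh1 UMIs in the stricter gate, Cdh1 was higher in immune-rich cells. Its level in immune-rich cells was 2.37 times that of the stricter gate in MYC replicate 5, 2.62 times in MYC replicate 1 and 11.5 times in MYC replicate 4, where the stricter gate held only 2 Cdh1 UMIs and the immune-rich cells 113. In MYC replicate 2 it was 0.261 times, from 4 UMIs in each class, and MYC replicate 3 had 0 Cdh1 UMIs in the stricter gate and 2 in immune-rich cells. In SHH replicates 1 and 2 it was 0.395 and 0.159 times. The Cdh1-positive immune-rich cells often held a UMI of a gene listed as a dendritic cell marker (Cd207, Flt3, Cd209a, Ccr7 or H2-DMb2). A single UMI of any of these genes was counted, so the shares do not identify dendritic cells. In MYC replicate 5 the share was 64.6% (59.1 to 69.7%), against 21.8% of Cdh1-negative immune-rich cells. At 1500 UMIs per cell it was 46.6% against 11.9%. In MYC replicate 4 the shares were 54.8% and 28.2%, and in SHH replicate 1 59.4% and 11.4%. The same was seen for other members: for Epcam the shares in positive and negative immune-rich cells were 40.5% and 20.2% in MYC replicate 5, 69.0% and 28.7% in MYC replicate 4, and 44% and 10.5% in SHH replicate 1. For Spint2 they were 56.3% and 23.2% in MYC replicate 4 and 52.8% and 10.3% in SHH replicate 1. At 1500 UMIs per cell the shares in MYC replicate 4 were 38.1% and 19.6% for Epcam and 34.1% and 15.9% for Spint2. In MYC replicate 2 Spint2 did not show this at equal depth, with 18.1% and 13.1% at own depth and 2.86% and 4.55% thinned. Its Spint2-positive immune-rich cells were deeper, with a median of 14194 against 4239.5 UMIs. Sfn in MYC replicate 5 had 21.7% and 25.5%. E-cadherin is a known surface molecule of Langerhans cells and other dendritic cells. Spint2 was also higher in immune-rich cells of the trigeminal libraries, at 4.201 and 1.77 times the stricter gate in MYC replicates 2 and 4, and Epcam at 3.54 times in MYC replicate 4, from only 3 UMIs in its stricter gate. In MYC replicate 2 Epcam was lower in immune-rich cells, with 33 UMIs in the stricter gate and 1 in immune-rich cells.

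**Figure D5:**
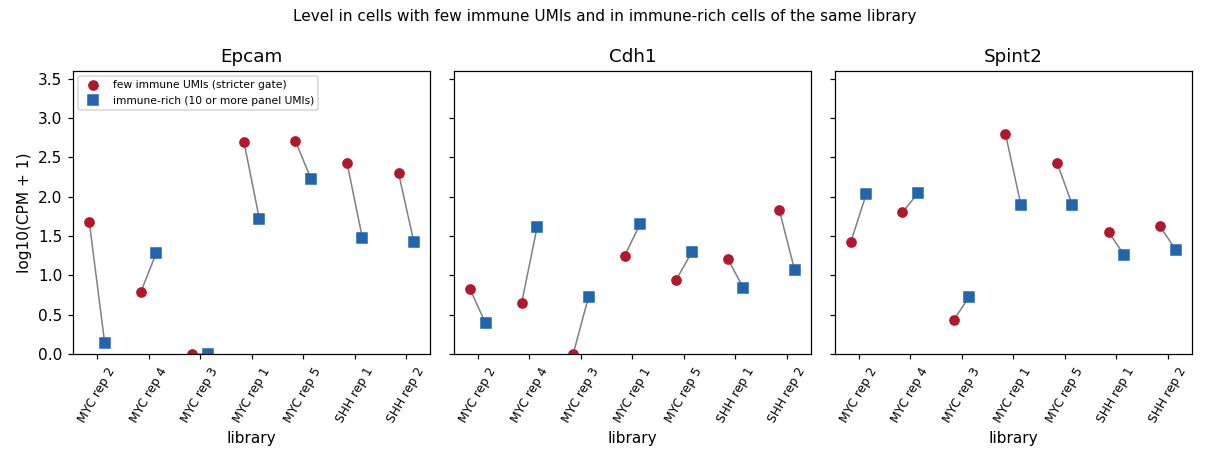
Level of Epcam, Cdh1 and Spint2 (y axis, log10(CPM + 1)) in stricter-gate cells (circles) and immune-rich cells (squares) of each library (x axis), joined by a line. Cdh1 was higher in the immune-rich cells of MYC replicates 1, 3, 4 and 5, and lower in those of both SHH libraries and of MYC replicate 2.

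Over 6 animals, Ptprc-negative against Ptprc-positive cells gave 4 members that passed the filter on low counts (Epcam, Cdh1, Spint2 and Sfn). A gene passes it only if it is detected in enough of the 12 sums, so the 4 are not a sample of the set. None was called by edgeR, where 22.1% of 10590 genes were. Epcam stood at 359, 8.72, 7.00 and 439 CPM in Ptprc-negative cells of MYC replicate 1, replicates 2 and 3, replicate 4 and replicate 5, against 64.6, 0.650, 20.1 and 236 CPM in their Ptprc-positive cells. In SHH replicates 1 and 2 Epcam stood at 104 and 146 CPM in Ptprc-negative cells, against 40.4 and 32.3 CPM in Ptprc-positive cells. It was thus higher in the Ptprc-negative cells of 5 of 6 animals, all but MYC replicate 4 (1.34 ± 0.50; edgeR adjusted p = 0.0870), and DESeq2 called it (adjusted p = 0.0211), where it called 13.8% of genes higher. Spint2 (0.19 ± 0.38; edgeR adjusted p = 0.782) was higher in the Ptprc-negative cells of 2 of 6 animals and Sfn (0.48 ± 0.24; edgeR adjusted p = 0.191) in 4 of 6. Cdh1 was lower in the Ptprc-negative cells of all 4 MYC animals and higher in those of both SHH animals (-0.54 ± 0.40; edgeR adjusted p = 0.385). The difference between the subgroups in this contrast was tested after the data were seen: for Cdh1 it had an unadjusted p of 0.00540, where 7.33% of genes had one under 0.05, and an edgeR adjusted p = 0.590, where 0% of genes were called.

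Other junction genes did pass this test. Cldn11, a claudin of myelin and of arachnoid barrier cells (2.81 ± 0.59; edgeR adjusted p = 0.0195), Cdh2 (1.97 ± 0.46; edgeR adjusted p = 0.0252) and Ctnnb1, which encodes the cadherin partner beta-catenin (1.17 ± 0.23; edgeR adjusted p = 0.0160), were higher in Ptprc-negative cells. In all, 2 of 7 other tight junction genes tested and 5 of 7 adherens and desmosome genes tested were higher, where 9.51% of all genes were. The desmosomal plaque gene Pkp3 was lower (-1.65 ± 0.35; edgeR adjusted p = 0.0175), where 12.6% of all genes were. Among surface protease genes F2rl1, a receptor cleaved by these proteases (1.90 ± 0.49; edgeR adjusted p = 0.0294), was higher and the urokinase receptor gene Plaur (-1.20 ± 0.24; edgeR adjusted p = 0.0162) was lower. Of the mesenchymal regulators Prrx1 (2.66 ± 0.47) and Twist1 (2.50 ± 0.49) were higher and Zeb2 (-1.29 ± 0.37) was lower, with edgeR adjusted p = 0.0160, 0.0160 and 0.0384.

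Genes with the most similar pattern were read over 15 profiles, the classes of Ptprc-negative cells with and without Krt8 and Col1a2 in the 7 libraries that held at least 20 cells. These profiles share libraries, and the correlations of log2(CPM + 1) are descriptions. The summed level of the set was followed most closely by Hook2 (Pearson r = 0.911), Cmtm8 (0.903), the desmosomal cadherin gene Dsg2 (0.901), Kcnk1 (0.901) and Mdfi (0.900), among 10501 genes. Cldn6 and Cldn7 were both closest to Kdf1, a keratinocyte differentiation gene (0.993 and 0.991), and Cldn7 next to Prss8 (0.988). Sfn and Spint1 were each other's closest gene (0.971). Cldn3 was closest to Arhgdig (0.956), Cldn4 to Tspan1 (0.959), Epcam to Rnf208 (0.968) and Spint2 to Zfp296 (0.896). Cdh1 had the weakest closest match, Shtn1 (0.828).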

How the data were processed

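Single cells of mouse ATRT were sorted with the dye 7-AAD to leave out dead cells and profiled with 10x Chromium 3′ chemistry. The deposited tables hold raw UMI counts per gene and barcode; the authors used Cell Ranger 2.0.2 and mm10, per the submitters' processing notes. MYC replicate 5 and SHH replicate 1 were sequenced in 2 runs, per the labels. Replicates are numbered in the order of deposit. The members, gene lists and tests were chosen with earlier results of these data known. The named genes are the 9 members, Krt8, Col1a2 and Ptprc, up to 4 called genes per list by fold change, and the genes closest in profile. Other genes in the text (the cell-state genes Fabp7, Ttr and Gfap, Smarcb1 as the deleted gene, and single list genes given by level) lie outside this rule and were chosen with values of these data known.

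Barcodes with at least 500 UMIs, at least 200 genes and at most 20% mitochondrial UMIs were kept. Scrublet (scanpy 1.11.5) doublets were removed at 0.8% per 1000 cells in libraries of at least 200 cells: 2039 barcodes, of which 1861 in MYC replicate 5. Counts were summed per animal (per library for the site comparison) and class with at least 20 cells, and tested across all genes with edgeR 4.0.16 (TMM, filterByExpr, glmQLFit, glmQLFTest, Benjamini-Hochberg, threshold 0.05), with the animal as a block where classes of 1 tumour were compared. Levels per library (CPM) are UMIs per 1000000 UMIs of the summed cells, and those in class comparisons use edgeR's normalised library sizes. A level of 0 was set against a floor of 3 UMIs. The SE of an edgeR log2 fold change is its absolute value divided by the square root of the test's F statistic. It therefore restates the test and is not a separate estimate. Intervals are Wilson 95% and cover counting error only. Alternatives were DESeq2 1.42.0, no filter on low counts, doublets kept, thinning to 1500 UMIs per cell, a stricter immune gate, a higher UMI minimum, sequencing runs as a covariate, libraries of 1 animal kept apart, the cerebellar library added to the site comparison, and leaving out each animal or library. The immune-rich class and the test of the subgroup difference were added after seeing the data. The fits were tested on simulated data. Where animals come from separate tumours, p-values measure the spread between tumours. Promoter windows and coordinates are from reference tables of GRCm38.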

Additional observations from a re-analysis of the deposited data

Results flagged for a closer look

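The difference in Cdh1 between Ptprc-negative and Ptprc-positive cells ran in opposite directions in the MYC and SHH animals. On the log2 scale it was -1.51, -0.449, -1.28 and -0.917 in MYC replicate 1, replicates 2 and 3, replicate 4 and replicate 5, and 0.0622 and 1.61 in SHH replicates 1 and 2. The test of the difference itself gave -1.99 ± 0.51 (log2, MYC minus SHH; edgeR unadjusted p = 0.00540, adjusted p = 0.590), so that it did not pass the correction over 10590 genes. In that test edgeR called 0 genes, and 776 genes (7.33%) had an unadjusted p under 0.05. Of the other 3 members tested, Epcam gave -0.64 ± 1.04, Spint2 0.82 ± 0.79 and Sfn 0.22 ± 0.90, with edgeR adjusted p = 0.975, 0.888 and 1. The SHH value of SHH replicate 1 was close to 0, so that the opposite direction rests on SHH replicate 2 in size. Subgroup and site cannot be told apart here.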

How the results depend on the processing

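No paired analysis was possible between the subgroups because their replicate numbers only follow the order of deposit. In the class comparisons the animal was the block, and without that block edgeR called 0 higher and 0 lower genes by Krt8, 1 higher and 0 lower by Col1a2, and 0 higher and 1 lower by Ptprc, with Epcam at 0.01 by Krt8. No alternative turned the direction of a member that it tested in the subgroup comparison. Only 6 of the 9 members were tested without MYC replicate 1 and 5 without MYC replicate 5, so the rest had no direction there. DESeq2 called 521 genes higher and 401 lower between subgroups with 4 members, 64 and 273 by Krt8 with 1 member, 245 and 451 by Col1a2, 222 and 183 between sites with 7 members, and 1 member by Ptprc. Without the low-count filter the counts were 89 higher and 284 lower by Col1a2, 445 and 440 between sites with 8 members, and 1 member by Ptprc. The stricter gate gave 158 higher and 190 lower between subgroups, 2 and 0 by Krt8, and 1 and 0 by Col1a2. Thinning gave 22 higher with 2 members (Cldn4 and Sfn) by Krt8, and 80 higher and 109 lower by Col1a2. With doublets kept the counts were 2 higher and 5 lower by Krt8 and 0 lower by Col1a2. Between subgroups, sequencing runs as a covariate gave 0 higher and 2 lower, and libraries kept apart 10 and 69.

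Leaving out 1 animal or library gave 0 to 0 higher, 0 to 3 lower and 0 to 0 members between subgroups, 0 to 31 higher, 0 to 277 lower and 0 to 0 members by Col1a2, 0 to 0 of each between sites, and 477 to 1117 higher, 247 to 1258 lower and 0 to 1 members by Ptprc (671 higher and 651 lower without MYC replicates 2 and 3). Epcam was called by Ptprc without MYC replicate 4, and Cldn3 without MYC replicates 2 and 3 or without SHH replicate 1. Signs turned for Epcam by Krt8 (0.01 with DESeq2, 0.48 thinned), Spint1 by Krt8 (-0.09, stricter gate), Epcam by Col1a2 (0.16 without MYC replicate 4, range -0.27 to 0.39), Spint1 by Col1a2 (0.18 without MYC replicate 5, range -0.96 to 0.18), Cldn3 by Col1a2 (-0.85 thinned), Sfn by Col1a2 (-0.16, stricter gate), Cdh1 between sites (0.22 without MYC replicate 2, range -2.19 to 0.22) and Spint2 by Ptprc (-0.18 without MYC replicate 1, range -0.18 to 0.37). The causes were not tested. By Krt8 no animal could be left out, since 1 would remain.

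The share of cells with any of the 9 genes was 61.6, 8.21, 16.7, 67.9, 14.4 and 27.0% thinned (MYC replicates 1, 2, 4 and 5, SHH replicates 1 and 2) and 94.6, 17.0, 26.9, 91.9, 35.7 and 50.7% in the stricter gate. It was 85.0% in MYC replicate 5 with doublets kept. Of Krt8-positive cells, 61.2 and 32.1% held Col1a2 when thinned (MYC replicates 1 and 5). Depth limits MYC replicate 4 most, with a median of 1480 UMIs per cell in the stricter gate.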
